A study of Gorilla gorilla with 12 samples.

Results

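Elastic fibres are the extracellular structures that let skin, arteries and lung recoil. Their core is elastin, secreted as a soluble monomer and crosslinked outside the cell by lysyl oxidase, and it is laid down on a scaffold of microfibrils built from fibrillins, with microfibril-associated glycoproteins and fibulins that bind to both parts. Fibroblasts make all of these components in connective tissue, and elastin itself is known to be produced mainly during development. The 9 genes described here are the fibrillins FBN1 and FBN2, the microfibril-associated MFAP2 and MFAP4, elastin (ELN), the fibulins FBLN1, FBLN2 and FBLN5, and lysyl oxidase (LOX). They are 9 of the 8229 genes named by a single-symbol probe set, and were represented by 11 of the 12625 probe sets on the array, each annotated with 1 of these symbols alone, with a pair of probe sets each for ELN and FBLN1. The family was chosen by reading the per-array intensities of these samples, so its spread between lines and its difference between both cultures of line KB_7621 are given as a description, with no test.

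The samples were fibroblast lines of gorillas whose donors the labels call normal, with 1 expression array per culture and no allele or treatment added. The 5 male lines came from donors aged 19 (KB_7500), 26 (KB_7621), 24 (KB_7801), 18 (KB_8592) and 3 years (KB_9047), and the 6 labelled female from donors aged 19 (KB_5047), 19 (KB_6268), 35 (KB_6278), 26 (KB_8021), 30 (KB_8594) and 2 years (KB_8840). All 11 were harvested under the study's standard conditions, and a second culture of KB_7621 was harvested at 50% confluence, when cells covered part of the dish. The body site of the lines and the density of the standard harvest were not given in the sources used here. Each line was cultured once per condition, so the order of the lines has no replicate check, and differences in the share of a cell type and in RNA per cell cannot be told apart. Intensities below are as deposited, on a linear scale whose lowest value, 100, is a floor and so an upper limit. Fold changes and tests are on quantile-normalized log2 values. The probes were designed on human sequence, so no probe set's level is set against another's.

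The cells carried fibroblast markers throughout. All 12 fibroblast marker genes with a probe set were above the floor on some array, and their summed intensity was 82412 at 50% confluence and 88796 to 132734 on the standard arrays. VWF, KRT5, KRT14, KRT19, PTPRC and TYRP1, which mark endothelial, epithelial, blood and pigment cells, stood at the floor on all 12 arrays. Other markers of those cells were above it on some array, 6 of 7 endothelial, 3 of 6 epithelial, 5 of 6 immune and 4 of 5 pigment cell genes with a probe set. Among them ENG, an endothelial marker, ran from 2252 to 4860 on the standard arrays, the monocyte marker CD14 from 100 to 1673, CD68 from 420 to 1080 and the pigment cell gene PMEL from 100 to 433. Smooth muscle marker sums ran from 15363 to 48770 over 9 genes, and cultured fibroblasts often express such markers. ACTA2 and TAGLN were above the floor in all lines, while MYH11 was at the floor on 6 standard arrays, CNN1 on 2 and MYLK on 1. The line KB_6278, labelled female, had 2595 on the probe set of the Y-linked gene RPS4Y1, against 2662 to 4363 in the male lines and at most 115 in the other lines labelled female. Its label is kept, and for each test the members' adjusted p-values are summarized with and without it.

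The members did not vary as a block. MFAP4 differed most between lines, from 146 to 6674, and was high in 2 male lines, while FBN1, FBLN2 and FBLN5 ranged over 2.87-fold, 2.02-fold and 2.82-fold after normalization. The highest level of a member fell in 6 different lines, taking 1 probe set per gene. KB_8840, from the donor of 2 years, had 5 of the 9 members among its top 2 ranks with FBLN1 taken from 38027_at, while on the other FBLN1 probe set, 38026_at, it was the lowest line. KB_8594, from the donor of 30 years, had the lowest level of 4 members, MFAP4, MFAP2, FBN1 and FBLN2. In the culture at 50% confluence FBN1 and LOX were higher than in the standard culture of that line, and ELN and FBLN5 were lower.

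**Figure D1:**
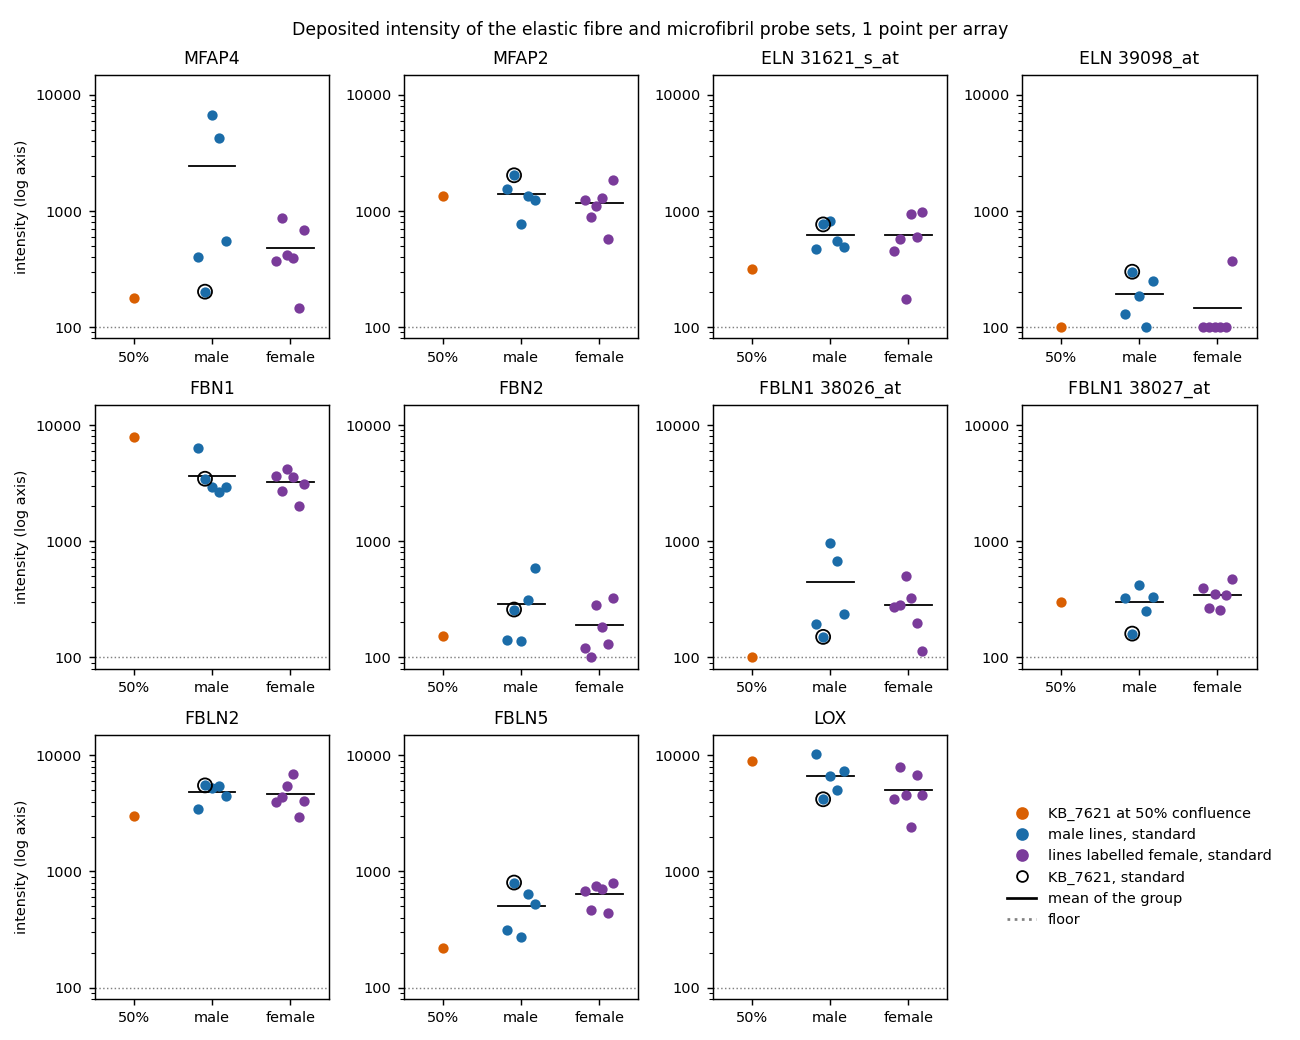
Deposited intensity (log axis) of the 11 probe sets, 1 point per array, for the KB_7621 culture at 50% confluence, the 5 male lines and the 6 lines labelled female. Black bars are group means, the ring marks the standard culture of KB_7621 and the dotted line is the floor of 100; MFAP4 reaches 6674 and 4295 in 2 male lines and stays at or below 869 elsewhere.

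FBN1, which codes for the main fibrillin of adult microfibrils, was well above the floor on all arrays. It had 6343 in KB_7500, 3455 in KB_7621, 2940 in KB_7801, 2665 in KB_8592 and 2921 in KB_9047, and between 2004 and 4233 in the lines labelled female, with a median of 3336. KB_7500 stood above the rest, and the other male lines lay inside the female range. The mean over the 11 lines was 3418 ± 1139 (SD, n = 11).

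FBN2 codes for the fibrillin that is known in humans to be made mostly in development. Its values lay between the floor and 584, and are not set against those of FBN1. The male lines KB_7500, KB_7621, KB_7801, KB_8592 and KB_9047 had 142, 258, 139, 314 and 584. Those labelled female had 100 to 326 with a median of 156, and KB_6268 was at the floor. The highest value belonged to the male donor of 3 years and the next to the female donor of 2 years.

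MFAP2, or MAGP-1, a small glycoprotein that binds fibrillin, had 1560, 2033, 780, 1343 and 1233 in the male lines in the same order. In the lines labelled female it ran from 575 in KB_8594 to 1864 in KB_8840, with a median of 1176. The groups overlapped along nearly their whole length, and the full range was 3.54-fold.

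MFAP4, a fibrinogen-domain glycoprotein that binds elastin and collagen, showed the widest range of the members. The male lines KB_7801 and KB_8592 had 6674 and 4295, and the other male lines, KB_7500, KB_7621 and KB_9047, had 399, 202 and 553. Those labelled female ran from 146 to 869 with a median of 407. The lower of the bright pair was 4.94 times the third line, and 9 of the 11 lines lay between 146 and 869. In log2 units its SD over the lines was 1.71, against 0.562 as the median of the members and 0.406 as the median of all 7535 probe sets tested. Marker sums beside this pair were 15363 and 19067 for smooth muscle (20097 to 48770 in the other lines except KB_6278, which had 16634), and 16248 and 10694 for 11 proliferation genes (4215 to 14516 in the other lines). The sum of 6 immune markers was 2795 in KB_7801 and 2178 in KB_8592, and it was 3060 in KB_6268, the next highest in MFAP4 with 869, against 1138 to 2037 in the other lines. CD14 had 1576, 1092 and 1673 in these lines and at most 419 in the others, and it carried the difference in the sum. CD68 had 600, 522 and 680 in these lines, HLA-DRA 167, 158 and 227, and CD74 100, 135 and 161, all inside the range of the other lines. CD3E was highest in KB_7801, at 252, and had 171 in KB_8592 and 219 in KB_6268. The sum of 5 pigment cell markers was 780 in KB_7801 and 1390 in KB_8592, against 592 to 910 in the other lines. The part of these markers in the MFAP4 values was not tested.

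ELN was read by a pair of probe sets that agreed in part. On 31621_s_at the male lines KB_7500, KB_7621, KB_7801, KB_8592 and KB_9047 had 468, 767, 824, 556 and 492, and those labelled female 173 to 979, with a median of 589.5. KB_6278 was low, at 173, while the next lowest line had 450. On 39098_at the male lines had 131, 300, 185, 100 and 248, and 5 of the 6 lines labelled female were at the floor, with KB_8840 at 372. The brightest line on both was KB_8840, the donor of 2 years. Between the probe sets Pearson's r over the 11 lines was 0.469, with 6 lines at the floor of 39098_at. On 39098_at the highest lines, KB_8840, KB_7621 and KB_9047, had smooth muscle marker sums of 48770, 42859 and 42132, against 15363 to 42663 in the other lines. KB_8021, with the sum of 42663, was at the floor on it. On 31621_s_at KB_8840 and KB_8021 were highest, but KB_7801, with the lowest sum, came next at 824, and KB_9047 had 492. The part of the smooth muscle markers in the ELN values was not tested.

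FBLN1 codes for a fibulin of elastic fibres and basement membranes, made as several splice forms in humans. Its probe sets did not follow each other (Pearson's r = 0.170 over the 11 lines), and whether they read different splice forms was not tested. On 38026_at the male lines KB_7500, KB_7621, KB_7801, KB_8592 and KB_9047 had 192, 150, 958, 675 and 237, and those labelled female 113 to 499, with a median of 278. The highest were KB_7801 and KB_8592, the lines that were highest in MFAP4. On 38027_at the male lines had 327, 160, 418, 253 and 333, and those labelled female 256 to 469, with a median of 345.5. There KB_8592 was among the lowest and KB_8840, the lowest line on 38026_at, was highest. Across the 11 lines the log2 levels of MFAP4 and of 38026_at had a Pearson's r of 0.743 and a Spearman's rho of 0.564, and r was 0.181 in the 9 lines without KB_7801 and KB_8592, so the likeness rests on those lines. That pair of probe sets was chosen after their values were seen.

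FBLN2, a large fibulin that binds fibrillin, had the narrowest spread of the members. It had 3450, 5513, 5188, 5492 and 4494 in the male lines in the order above, and 2955 to 6938 with a median of 4214 in those labelled female. The full range was 2.35-fold, with a mean of 4716 ± 1130 (SD, n = 11).

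FBLN5, a fibulin needed in mice to organise elastin on microfibrils, had 312, 802, 271, 635 and 520 in the male lines and 435 to 794 in those labelled female, with a median of 692. The lowest were KB_7801 and KB_7500, at 271 and 312, below every line labelled female. The mean over the lines was 579.3 ± 189.5 (SD, n = 11).

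LOX, the enzyme that crosslinks elastin and collagen, had 10180, 4186, 6628, 5041 and 7285 in the male lines and 2396 to 7958 in those labelled female, with a median of 4568. KB_7500 was highest and KB_8021 lowest, a range of 4.25-fold as deposited and 3.91-fold after normalization.

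Of the 11 probe sets, 4 had a range of 4-fold or more between lines after normalization, namely MFAP4 (45.2-fold), FBLN1 38026_at (8.79-fold), ELN 31621_s_at (5.86-fold) and FBN2 (5.71-fold). Of all probe sets tested, 12.5% had such a range. LOX at 3.91-fold and MFAP2 at 3.61-fold were the nearest below that limit. The family was chosen with these ranges in view, so the shares are not compared.

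**Figure D2:**
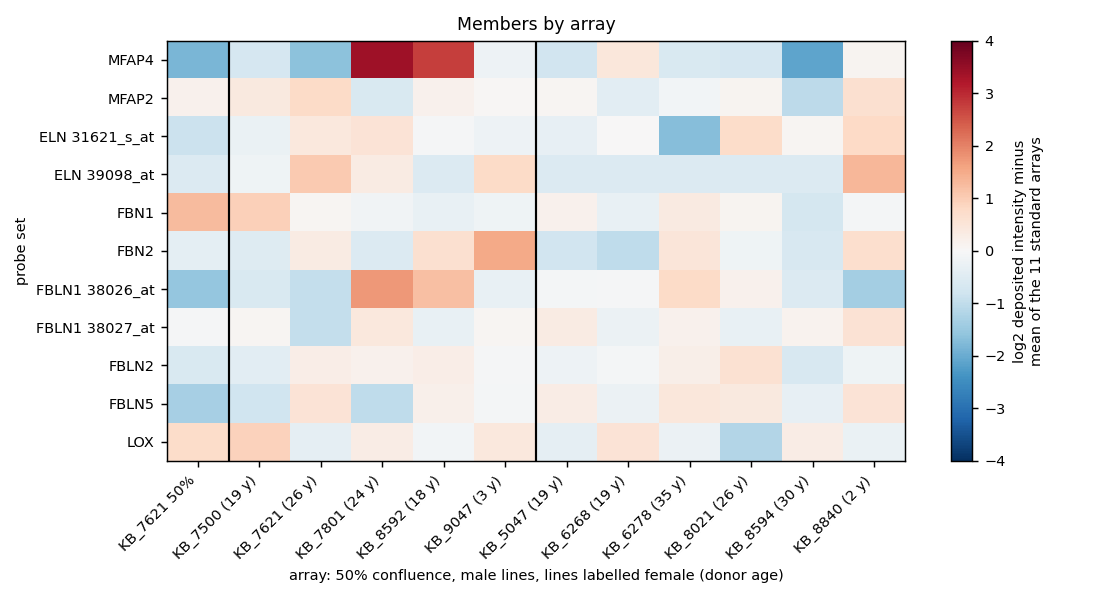
Log2 deposited intensity of each probe set minus its mean over the 11 standard arrays (colour), by array: the 50% confluence culture, the male lines and the lines labelled female, with donor ages. MFAP4 and FBLN1 38026_at are both highest in KB_7801 and KB_8592, and no array is high or low in all 11 probe sets.

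Between members, 17 of the 36 gene pairs had a positive Pearson's r over the 11 lines, taking FBLN1 from 38027_at, with a median of -0.015 and a range from -0.693 to 0.598. These values are a description without p-values, since the members were chosen on them, and each point shares 1 array, its RNA quality and its normalization between both genes. FBLN5 and LOX ran opposite (r = -0.693, Spearman's rho = -0.773). Their r was -0.683 without KB_7500 and KB_7801, the lines farthest from the median of FBLN5, and between -0.820 and -0.620 with any 1 line left out. The proliferation marker sums split the lines in the same way. They were 10408 to 16248 in KB_7500, KB_7801, KB_8592, KB_9047, KB_6268 and KB_8594, the lines highest in LOX and lowest in FBLN5. In the other lines they were 4215 to 5362, and their part in the opposite course of FBLN5 and LOX was not tested. FBLN2 and LOX had r = -0.635 and rho = -0.564, and r = -0.533 without KB_8021 and KB_8594. On the positive side, MFAP2 had r = 0.598 and rho = 0.564 with FBLN5, and r = 0.563 and rho = 0.509 with FBN1. These depended on KB_7801 and KB_8594, without which r was 0.364 and 0.200. ELN and LOX, the crosslinked protein and its enzyme, had r = -0.184 over 11 lines and -0.575 without KB_6278 and KB_8840. ELN and FBLN5 had r = -0.064.

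**Figure D3:**
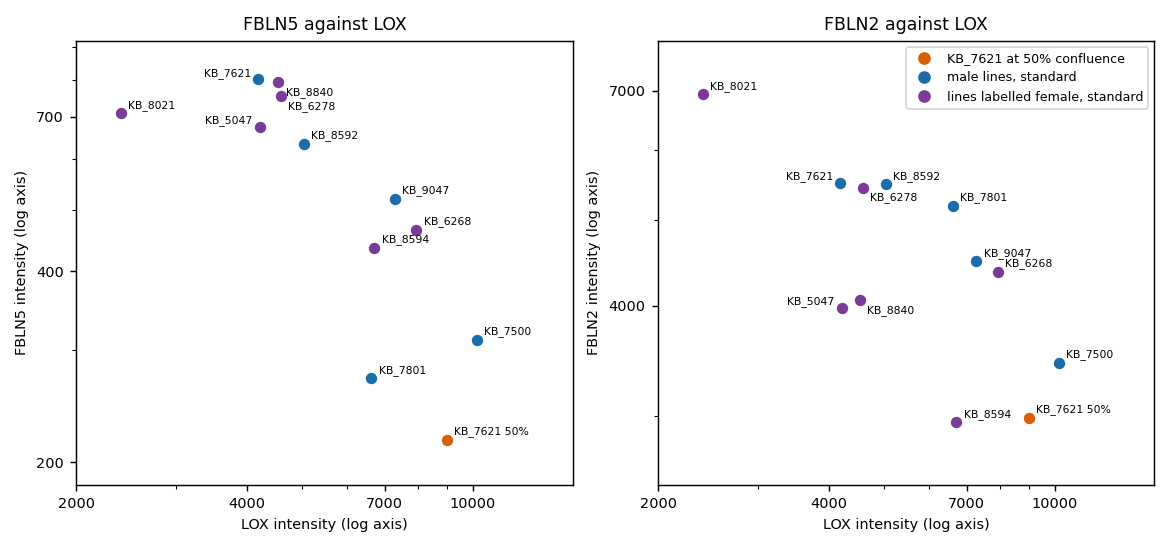
Deposited FBLN5 (left) and FBLN2 (right) intensity against LOX intensity, all on log axes, 1 labelled point per array. On quantile-normalized log2 values, r over the 11 standard arrays is -0.693 for FBLN5 and -0.635 for FBLN2. The 50% confluence culture of KB_7621 has the lowest FBLN5, 217, beside a LOX intensity of 9019.

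For the members with the largest SD among those brighter than the median probe set tested, MFAP4, ELN and LOX, the most alike genes were looked up among 3351 probe sets. MFAP4 was closest to the anion exchanger gene SLC4A2 (r = 0.902 over 11 lines, 0.570 without KB_7801 and KB_8592), the sialyltransferase gene ST6GALNAC4 (0.869 and 0.939) and the RNA-binding protein gene RBMS1 (0.851 and 0.501). ST6GALNAC4 followed MFAP4 also among the 9 lines where MFAP4 was low. ELN on 31621_s_at was closest to SF3A2 (0.911), a splicing factor, NFYC (0.871), a subunit of a CCAAT-binding factor, and NDEL1 (0.845), a dynein regulator. Without KB_6278 and KB_8840 these were 0.620, 0.665 and 0.294. LOX was closest to the proteasome subunit gene PSMA4 (0.936), the cytidine deaminase gene APOBEC3B (0.901) and the chromatin gene BRD8 (0.892), with 0.921, 0.868 and 0.797 without KB_7500 and KB_8021. With so many probe sets and 11 lines, values of this size are a ranking and no more.

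No member was called between the sexes. The difference, male minus female, was above zero for 9 of the 11 probe sets and its median was 0.28 log2 units (-0.009 over all probe sets tested). None had an unadjusted p under 0.05. By limma, the linear model fitted over all probe sets, 0 of 7535 were called at an adjusted p under 0.05, or 0%, with 396 at an unadjusted p under 0.05. The largest difference was that of MFAP4, at 1.30 (SE 0.79, adjusted p = 0.890), with a mean of 2425 ± 2920 in males (SD, n = 5) and of 480.5 ± 255.7 in females (SD, n = 6). It was 0.63 without KB_7801 and 1.93 without KB_7621. FBN2 differed by 0.54 (SE 0.38) and LOX by 0.37 (SE 0.30), while FBLN5, at -0.37 (SE 0.28), and FBLN1 38027_at, at -0.31 (SE 0.27), were lower in males. Each of these moved with 1 line left out, FBN2 to 0.24 without KB_9047, LOX to 0.15 without KB_8021, FBLN5 to -0.19 without KB_7801 and FBLN1 38027_at to -0.06 without KB_7621. All 11 adjusted p-values lay between 0.890 and 0.970, and without KB_6278 between 0.942 and 0.981. The difference of ELN on 31621_s_at was 0.17 (SE 0.37) with KB_6278 and -0.16 (SE 0.26) without it. On ELN 39098_at it was 0.54 (SE 0.36), and between 0.38 and 0.84 with any 1 line left out. Most lines labelled female were at the floor on that probe set, and with a floor of 200 its difference was 0.0068.

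Donor age gave no call either. In limma with sex as a covariate, 0 of 7535 probe sets were called for the slope of age, or 0%, with 410 at an unadjusted p under 0.05. Of the members' 11 slopes 8 were negative, with a median of -0.16 log2 units per 10 years (-0.002 over all probe sets tested). Their adjusted p-values lay between 0.901 and 0.985, and without KB_6278 between 0.993 and 0.997. The slope with the smallest p was that of ELN 39098_at, -0.36 per 10 years (SE 0.17, unadjusted p = 0.0472, adjusted p = 0.901), and it was 0.00 without KB_8840. FBLN1 38026_at had a slope of 0.42 (SE 0.24), or 0.23 without KB_8840, and FBN2 one of -0.29 (SE 0.19), or -0.08 without KB_9047. Without KB_6278 the slope of FBN2 was -0.51 (SE 0.18, unadjusted p = 0.0124, adjusted p = 0.993), and that of ELN 31621_s_at was 0.02 (SE 0.15) instead of -0.25 (SE 0.19), which was -0.43 without KB_9047. For a difference of slope between the sexes limma called 0 of 7535, or 0%, with 282 at an unadjusted p under 0.05. Each member had an adjusted p of 0.999, and of 0.998 without KB_6278. The smallest unadjusted p was that of ELN 31621_s_at, 0.0370, and it was 0.116 without KB_6278. Ratios of 3' to 5' intensity, which gauge RNA quality, were 1.28 and 1.30 for GAPDH in KB_8840 and KB_9047, the lines of both young donors, and 0.821 to 1.34 in adult lines. For ACTB they were 0.840 and 0.672 in the young donors and 0.865 to 1.188 in the adults, and their part in the slopes was not tested.

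The donors of 2 and 3 years were also set beside the 9 adults as ranges, a comparison chosen after the values were seen. In these young donors FBN2 had 326 and 584, against 100 to 314 in adults with a median of 142. It was the 1 member probe set of 11 with both young donors above every adult, which held for 3.07% of all probe sets tested. None of the 11 had both below every adult, which held for 1.99%. On ELN 39098_at the young donors had 372 and 248 and the adults 100 to 300, with 6 adults at the floor. On FBLN1 38026_at they had 113 and 237 and the adults 150 to 958.

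**Figure D4:**
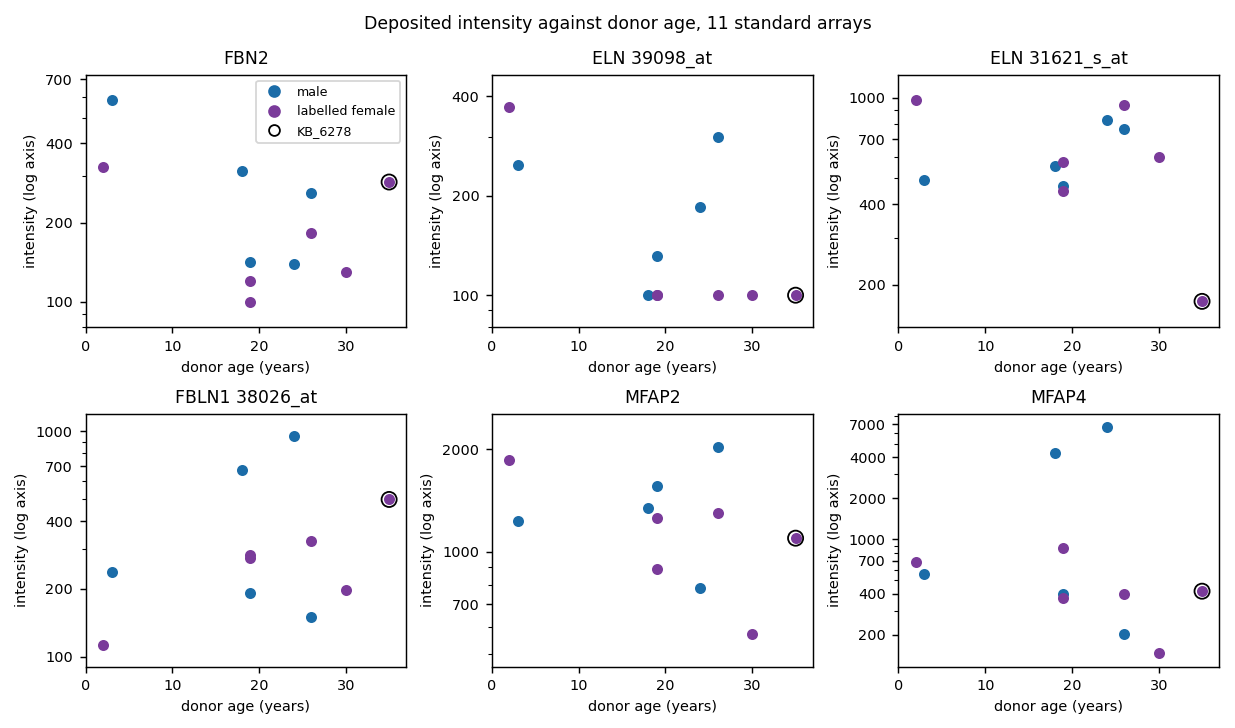
Deposited intensity (log axis) of 6 member probe sets against donor age in years, for the 11 standard arrays, with male lines, lines labelled female and, ringed, KB_6278. FBN2 is 326 and 584 in the young donors, aged 2 and 3 years, and at most 314 in adults; MFAP4 is high in the donors of 18 and 24 years alone.

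KB_7621 at 50% confluence was read on a single array and so was its standard culture, which leaves no replicate check on what follows and allows no p-value. LOX and FBN1 were higher. FBN1 had 7832 at 50% confluence and 3455 in the standard culture, 2.14-fold, and its value lay above all 11 standard arrays. LOX had 9019 at 50% confluence and 4186 in the standard culture, 2.12-fold, exceeded as deposited by KB_7500 alone and above all standard arrays after normalization. FBLN1 38027_at had 300 at 50% confluence, inside the range of the lines, and 160 in the standard culture, the lowest of the 11 lines. The difference was 2.33-fold after normalization and 1.875-fold as deposited.

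FBLN5 and ELN were lower at 50% confluence. FBLN5 had 217 there and 802 in the standard culture, 3.46-fold lower, and lay below all 11 standard arrays, while the standard culture was the highest of them. ELN on 31621_s_at had 315 at 50% confluence and 767 in the standard culture, 2.32-fold lower, and 10 of the 11 standard arrays were higher. ELN on 39098_at was at the floor at 50% confluence and had 300 in the standard culture, at least 3.00-fold lower as deposited. FBLN2 had 2987 at 50% confluence and 5513 in the standard culture, 1.93-fold lower, and was below all standard arrays after normalization, though not as deposited. FBLN1 38026_at was at the floor there and had 150 in the standard culture. The floor value lay below all standard arrays, the lowest of which had 113. Its log2 difference of -0.36 was opposite in sign to that of the other FBLN1 probe set. That difference rests on a value at the floor, and it was 0.0 with a floor of 200.

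MFAP2, FBN2 and MFAP4 differed by less than 2-fold and lay inside the range of the standard arrays. MFAP2 had 1354 at 50% confluence and 2033 in the standard culture, a log2 difference of -0.65, and that standard value was the highest of all lines. FBN2 had 154 at 50% confluence and 258 in the standard culture, or -0.44. MFAP4 had 178 at 50% confluence and 202 in the standard culture, or 0.17 after normalization and -0.18 as deposited, so its sign depends on the scaling. In all, 3 of the 11 probe sets were 2-fold or more higher, beside 6.97% of all probe sets tested, and 3 were 2-fold or more lower, beside 7.25%. After normalization 2 lay above all standard arrays, beside 6.60% of all, and 3 below, beside 4.76%. The values of the 50% confluence array entered the choice of the family, so nothing is read from these counts. The nearest below the 2-fold limit was FBLN2, and the nearest above it was LOX.

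Beside these differences, the sum of the proliferation markers as deposited was 11391 at 50% confluence and 5362 in the standard culture. That of the smooth muscle markers was 22650 at 50% confluence and 42859 in the standard culture. That of the fibroblast markers was 82412 at 50% confluence and 125775 in the standard culture. After normalization the median log2 differences of the tested markers were 1.30, -0.70 and -0.039 in this order. Of the fibroblast markers 5 were then higher and 7 lower. The sum of 6 cartilage markers was 4589 at 50% confluence and 9148 in the standard culture, and COL11A1 made up most of both. After normalization ACAN was 4.15-fold, COL11A1 2.10-fold and COL2A1 1.10-fold lower, while COMP was 1.51-fold higher. The sum of 6 immune markers was 1077 at 50% confluence and 1782 in the standard culture. Among these CD14 was at the floor at 50% confluence and had 419 in the standard culture. The array at 50% confluence had 49.2% of its probe sets at the floor and a median intensity of 105, while the standard one had 40.1% and 148. Its 3' to 5' ratio was 0.990 for GAPDH and 0.857 for ACTB, against 1.30 and 0.865 on the standard array. What part these have in the members' differences was not tested. With median scaling all probe sets tested shifted by a median of 0.44 log2 units, and relative to that shift each member probe set kept its sign except MFAP4.

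**Figure D5:**
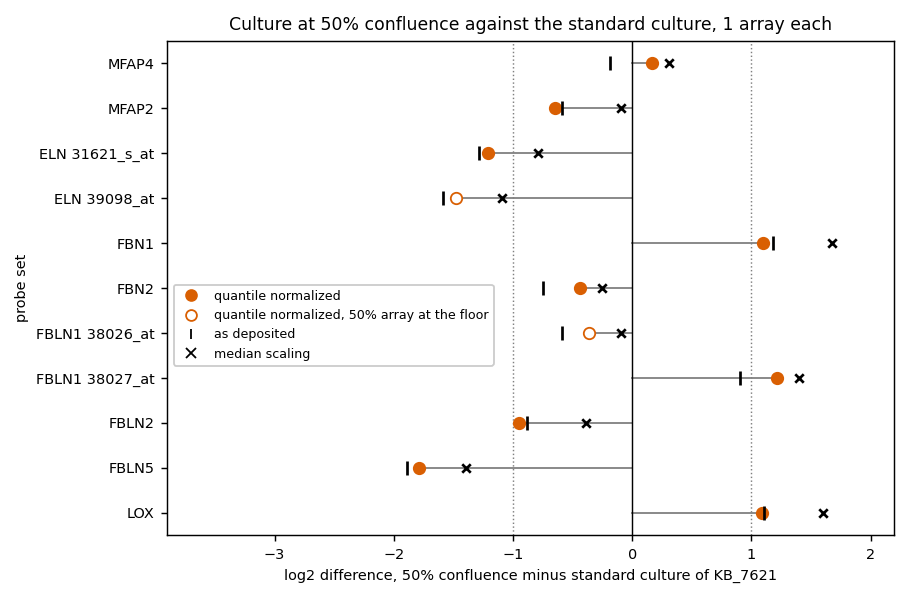
Log2 difference of each probe set, 50% confluence minus standard culture of KB_7621, with quantile normalization (circles, open where the 50% array is at the floor), as deposited (bars) and with median scaling (crosses); dotted lines mark 2-fold. FBN1, LOX and FBLN1 38027_at lie right of zero by all 3 scalings, and FBLN5 and both ELN probe sets lie left of it.

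Other genes of the elastic fibre pathway were read from 4 lists, and none of their members was called for sex or age by limma. Among further microfibril partners 12 of 20 genes had a probe set, all 12 were tested, 6 were higher and 6 lower at 50% confluence, and none differed 2-fold after normalization. LTBP2, a latent TGF-beta binding protein, had 1032 at 50% confluence and 617 in the standard culture, and MFAP3 had 133 at 50% confluence and stood at the floor in the standard culture. MFAP5, or MAGP-2, a relative of MFAP2, had 588 at 50% confluence and 822 in the standard culture. EFEMP1, or fibulin-3, stood at the floor at 50% confluence and had 151 in the standard culture. Between lines MFAP5 ran from 106 in KB_7801 to 1071 in KB_8840, and the proteoglycan gene BGN from 2408 in KB_6278 to 33087 in KB_7500. KB_8840 was thus highest in MFAP5 as well as in ELN.

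In the list of lysyl oxidase relatives and processing enzymes 9 of 12 genes had a probe set, and 7 were tested. At 50% confluence 4 were higher and 3 lower, none by 2-fold after normalization. LOXL1, a crosslinking enzyme of elastic fibres, had 8155 at 50% confluence and 4840 in the standard culture, or 0.66 in log2 units, beside 1.09 for LOX. BMP1, a protease that activates the LOX precursor, had 1238 at 50% confluence and 718 in the standard culture. The fibronectin gene FN1 had 13447 at 50% confluence and 32691 in the standard culture as deposited, but the log2 difference after normalization was -0.33. The matrix protein gene POSTN had 4219 at 50% confluence and 4728 in the standard culture. LOXL1 was highest in KB_7500, at 8708, as LOX was, and lowest in KB_6278, at 1964, and BMP1 ran from 337 in KB_6278 to 1254 in KB_7801.

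Of the elastin receptor and elastase genes 15 of 16 had a probe set and 9 were tested. After normalization 8 of these were lower at 50% confluence and ITGB5 was equal. As deposited ITGB1, CTSL and ITGB5 were higher, with 5423, 3862 and 6177 against 5180, 3732 and 5987 in the standard culture. The normalized log2 differences of ITGB1 and CTSL were -0.038 and -0.051, so their sign depends on the scaling. The others of the 9 were lower as deposited too, with ITGB3 at the floor at 50% confluence. The collagenase and elastase gene CTSK was 6.52-fold lower, with 1036 at 50% confluence and 6411 in the standard culture, and CTSA, a subunit of the elastin receptor complex, had 1690 at 50% confluence and 3070 in the standard culture. CTSK had the widest range between lines, 860 to 11479, and NEU1, the sialidase of the same complex, ran from 235 in KB_7801 to 857 in KB_8021. Of the 14 regulators with a probe set, out of 15, 11 were tested, 4 higher and 7 lower at 50% confluence, none by 2-fold. The receptor gene TGFBR2 had 2025 at 50% confluence and 1029 in the standard culture, and IGF1 had 144 at 50% confluence and stood at the floor in the standard culture. TGFB1, which stimulates elastin synthesis, had 968 at 50% confluence and 1486 in the standard culture, and its signal transducer SMAD3 had 326 at 50% confluence and 565 in the standard culture. Between lines IGFBP5, an IGF binding protein, ran from 312 in KB_7500 to 8433 in KB_7801, the line highest in MFAP4. Next highest in IGFBP5 were KB_8592, at 7198, and KB_6278, at 6621, where MFAP4 had 4295 and 417. A link of these genes was not tested. TGFBR2 ran from 866 in KB_9047 to 5600 in KB_6278. Median log2 differences of the 4 lists at 50% confluence were -0.045, 0.067, -0.37 and -0.27 in the order given, and 0.00 over all probe sets tested.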

How the data were processed

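The authors deposited 1 intensity per probe set and array, whole numbers on a linear scale with a floor of 100, and their software and scaling were not given in the sources used here. Values were taken to log2. Array medians ran from 6.71 to 7.21 in log2 units, so the 12 arrays were quantile normalized with limma 3.58.1 in R 4.3.3. After removal of 67 control probe sets, those with a mean above the 40th percentile over the arrays of a fit were tested, 7535 in all, and the 11 member probe sets passed. Sex and age were fitted with lmFit and eBayes over the 11 standard arrays at a Benjamini-Hochberg adjusted threshold of 0.05, and the steps were tested on simulated arrays. The number of arrays limits the precision, and p-values rest on the spread between lines, each from another animal. Of 12625 probe sets the platform annotation gives 10961 1 symbol, 545 several and 1119 none, and all 9 members are in the gorilla gene table, used for names alone. Lists were described over 1 tested probe set per gene, that of highest mean, and marker sums over the probe set with the highest mean, tested or not. Pathway genes were named by the 2 largest differences per direction at 50% confluence with the brighter value above its array's median and by the 2 widest ranges per list. Members and lists were chosen with earlier results of these data known. Alternatives were other scalings, filters and floors, age on a log scale, adults alone, each line left out, and the 50% confluence array of KB_7621 in place of its standard one. Python 3.11.15 was used for summaries.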

Additional observations from a re-analysis of the deposited data

Results flagged for a closer look

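Among the 22 sets of values that the 11 probe sets give in both sexes, 1 held a line whose gap to its nearest neighbour, as a share of the group's range, passed the critical value of Dixon's ratio. The nominal chance rate of about 1 in 20 assumes values without ties, so it does not hold for a group at the floor. The ratio is used here to point at values and is no test of the spread between lines, on which the family was chosen. On ELN 39098_at the line KB_8840, from the donor of 2 years, had 372, while the other 5 lines labelled female were at the floor. So the gap was the whole range of the group (critical value 0.625 of the range) because the other values are censored at the floor. Any value above the floor would have given the same ratio. KB_8840 was also the highest of the 11 lines on ELN 31621_s_at, at 979, without standing apart there.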

How the results depend on the processing

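No member was called for sex or age under any alternative run. Over all probe sets, 2 were called for sex and 1 for age when KB_7621 was read from its 50% confluence array. With each line left out the counts were 0 to 1 for sex, the 1 being RPS4Y1 without KB_6278, and 0 for age. With that array exchanged, the male minus female difference was -0.071 for ELN 31621_s_at and -0.094 for FBLN2, and the age slope of FBLN2 was -0.014, each of the other sign. In adults alone the age slopes turned to 0.31 for ELN 39098_at, 0.59 for FBN2, 0.17 for FBLN5 and -0.013 for FBN1. The cause was not tested. With each line left out, male minus female differences ran from -0.16 to 0.35 for ELN 31621_s_at, -0.052 to 0.23 for FBN1, -0.023 to 0.69 for FBLN1 38026_at, -0.012 to 0.23 for FBLN2 and 0.24 to 0.73 for FBN2. Age slopes ran from -0.43 to 0.021 for ELN 31621_s_at, -0.47 to 0.0005 for ELN 39098_at, -0.051 to 0.096 for FBN1, -0.51 to -0.083 for FBN2, -0.155 to 0.050 for FBLN5 and -0.53 to 0.055 for MFAP4. Among the members 3 to 4 had a 4-fold range with each line left out, the 3 without KB_6278 or without KB_9047, and the median correlation between members ran from -0.075 to 0.019. Values at the floor limit ELN 39098_at, FBN2 and FBLN1 38026_at. At 50% confluence 6 member probe sets differed 2-fold or more either way, against 5 as deposited, 5 with median scaling and 4 with a floor of 200. With that floor the log2 difference was 0.69 for FBLN1 38027_at, 0.0 for FBLN1 38026_at and -0.48 for ELN 39098_at.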
